A study of Mus musculus with 5 samples.

Results

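The liver X receptors (LXR), the genes they are best known to switch on, and the enzymes of fatty acid synthesis were followed in BV-2 cells, an immortalised mouse microglial line. The set held 10 genes chosen by symbol, and all 10 were among the 40879 gene symbols listed. The receptors were Nr1h2 and Nr1h3. The targets and enzymes were Abca1, Abcg1, Mylip, Srebf1, Acaca, Fasn, Scd1 and Scd2. Messenger RNA was counted by 3′-end sequencing (QuantSeq), which reads the end of each transcript, in 5 libraries with 1 library per group. The control is labelled as normal. The UPM library came from cells exposed to urban particulate matter at 50 µg/mL for 23 h. In the remaining 3 libraries the same exposure followed 1 h of pretreatment with the antidepressant trazodone (TZ) at 1.25, 2.5 or 5 µg/mL, and they are called TZ 1.25, TZ 2.5 and TZ 5. No library had TZ without particles, and no source used here states what vehicle the control received.

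LXR alpha and LXR beta are nuclear receptors for oxysterols, the oxidised forms of cholesterol. Each binds DNA beside a retinoid X receptor (RXR), at repeats of the AGGTCA half-site spaced by 4 bases, called DR4 elements. When cholesterol builds up in a macrophage or microglial cell, for instance after it engulfs myelin or debris, LXR raises the pumps that export cholesterol and a ligase that limits lipoprotein uptake. LXR also raises SREBP-1c, made from Srebf1, which in turn drives the enzymes that make and desaturate fatty acids.

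Promoter windows from RefSeq (GRCm38.p6, 250 bases before to 50 after an annotated start) were at hand for 7 of the 10 genes, 10 windows in all. Abcg1, Scd1 and Scd2 had none. Because the set is defined by LXR, each window was searched on both strands for a DR4-type element, the half-site NGGTNA followed by 4 bases of any kind and the half-site NGGTCA. It was present in 3 of the 10 windows, those of Abca1, Srebf1 and Fasn, and in 68 of all 32851 windows (0.207%). The set was picked for its known link to LXR, and these letters are looser than a perfect repeat. The difference between the shares is therefore a description and not a test. The 250 bases before the start are shown 5′ to 3′ for these 3 genes, with the element in capitals. All lie on the minus strand, at chr4:53159896-53160145 for Abca1, chr11:60210472-60210721 for Srebf1 and chr11:120824548-120824797 for Fasn.
Abca1: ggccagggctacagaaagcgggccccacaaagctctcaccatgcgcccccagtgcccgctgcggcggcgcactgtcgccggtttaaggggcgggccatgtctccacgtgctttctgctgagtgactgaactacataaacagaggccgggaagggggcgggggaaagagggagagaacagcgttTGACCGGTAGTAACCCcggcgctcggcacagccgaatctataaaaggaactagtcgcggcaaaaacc
Srebf1: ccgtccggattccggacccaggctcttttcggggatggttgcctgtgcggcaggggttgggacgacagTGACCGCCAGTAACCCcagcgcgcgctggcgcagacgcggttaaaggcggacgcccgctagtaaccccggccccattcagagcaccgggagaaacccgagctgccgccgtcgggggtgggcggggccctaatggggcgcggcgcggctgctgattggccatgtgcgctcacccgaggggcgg
Fasn: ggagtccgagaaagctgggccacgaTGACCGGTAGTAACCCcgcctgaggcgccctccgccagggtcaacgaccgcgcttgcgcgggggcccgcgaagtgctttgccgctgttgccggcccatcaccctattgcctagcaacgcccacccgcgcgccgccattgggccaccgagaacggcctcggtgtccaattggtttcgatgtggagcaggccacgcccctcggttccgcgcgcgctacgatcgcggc
Read on the opposite strand, the Abca1 and Fasn elements are the same 16 letters, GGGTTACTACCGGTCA, which 2 of the 32851 windows hold. The Srebf1 element, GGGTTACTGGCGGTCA, differs from them by A9G and C10G, counted from 1 at the 5′ end with Abca1 as the reference, both in the spacer. The element began 67 bases before the start in Abca1, 182 in Srebf1 and 225 in Fasn. Srebf1 has 3 annotated starts, and the element lay before 1 of them. Reads from the 3′ end do not tell which start was used. The windows of Nr1h2, Nr1h3, Acaca and Mylip did not hold these letters. The perfect repeat, AGGTCA on both sides of the 4 bases, was in 5 windows of any gene and in 0 of the 10. The sterol regulatory element TCACNCCAC, known as a site of SREBP proteins, was in 0 of the 10 and in 1.24% of all windows, each searched on both strands. These are matches of letters and not measured binding.

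Totals per library ran from 6829720 to 7696168 counts, so a count of 0 allows up to 0.390 to 0.439 counts per 1000000 (CPM). Of 16 markers of microglia and macrophages, 14 had a mean of at least 10 CPM, with a summed level of 4487 to 4917 CPM per library. P2ry12 and Tmem119, which mark resident microglia in the brain, were low, at 5 to 11 and 23 to 57 counts. Markers of neurons, astrocytes, oligodendrocytes and of endothelial cells and fibroblasts (0 of 25 at a mean of 10 CPM) each summed to at most 4.91 CPM, with Slc17a7, Aqp4 and Mog listed at 0 in every library. The share of counts from 146 small nucleolar RNA symbols was 0.0854% (control), 0.108% (UPM) and then 0.0995%, 0.0645% and 0.0458% with rising TZ dose. It was highest in UPM and lowest at TZ 5, as Nr1h2 was. The share from mitochondrial ribosomal RNA was 7.94% (control), 8.80% (UPM) and then 8.64%, 7.001% and 7.06%, also highest in UPM. The part of either share in the results was not tested.

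Levels below are normalised CPM, scaled by the TMM factor of each library. A fold is a ratio of such levels between 2 libraries, and the range in parentheses is a 95% counting interval. With 1 library per group there is no replicate check, so a fold compares 2 libraries and not 2 conditions. Libraries are said to be apart where the interval of their fold excludes 1. A gene was called higher or lower at a fold of at least 1.5 either way, with an interval that excludes 1 and a mean of at least 10 CPM over the pair (a measured gene), which all 10 genes reached in every comparison.

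Among the receptors, Nr1h2 (LXR beta, the form found in most tissues) was highest in UPM and lower at each higher dose of TZ. Its level was 35.4 CPM (control), 49.4 (UPM) and then 40.1, 31.3 and 30.7 with rising TZ dose, from 212 to 378 counts. UPM was apart from each of the other 4 libraries. TZ 1.25, the control, TZ 2.5 and TZ 5 followed in that order, and no neighbours among them were apart. Relative to UPM the TZ libraries were 0.811-fold (0.693 to 0.947), 0.634-fold (0.534 to 0.751) and 0.622-fold (0.524 to 0.738) with rising dose, the last 2 being calls. UPM stood 1.395-fold (1.19 to 1.64) relative to the control, while TZ 1.25, TZ 2.5 and TZ 5 were 1.13-fold (0.954 to 1.34), 0.885-fold (0.736 to 1.06) and 0.868-fold (0.722 to 1.04) of it and not apart.

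Nr1h3 (LXR alpha, prominent in liver and macrophages) had another course. It stood at 18.1 CPM (control), 15.0 (UPM) and then 14.0, 16.2 and 16.5 with rising TZ dose. No neighbours in the order of these levels were apart, on 101 to 136 counts. UPM was 0.830-fold (0.642 to 1.07) of the control and TZ 5 was 1.1002-fold (0.842 to 1.44) of UPM. The number of Nr1h2 counts per Nr1h3 count was 1.96 (1.58 to 2.42) in the control and 3.29 (2.66 to 4.09) in UPM. At TZ 1.25, TZ 2.5 and TZ 5 it was 2.86 (2.27 to 3.63), 1.94 (1.54 to 2.46) and 1.86 (1.47 to 2.36). The interval in UPM did not overlap those of the control, TZ 2.5 and TZ 5, and these counts come from 3′ ends, so the ratio compares tags and not transcript lengths.

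**Figure D1:**
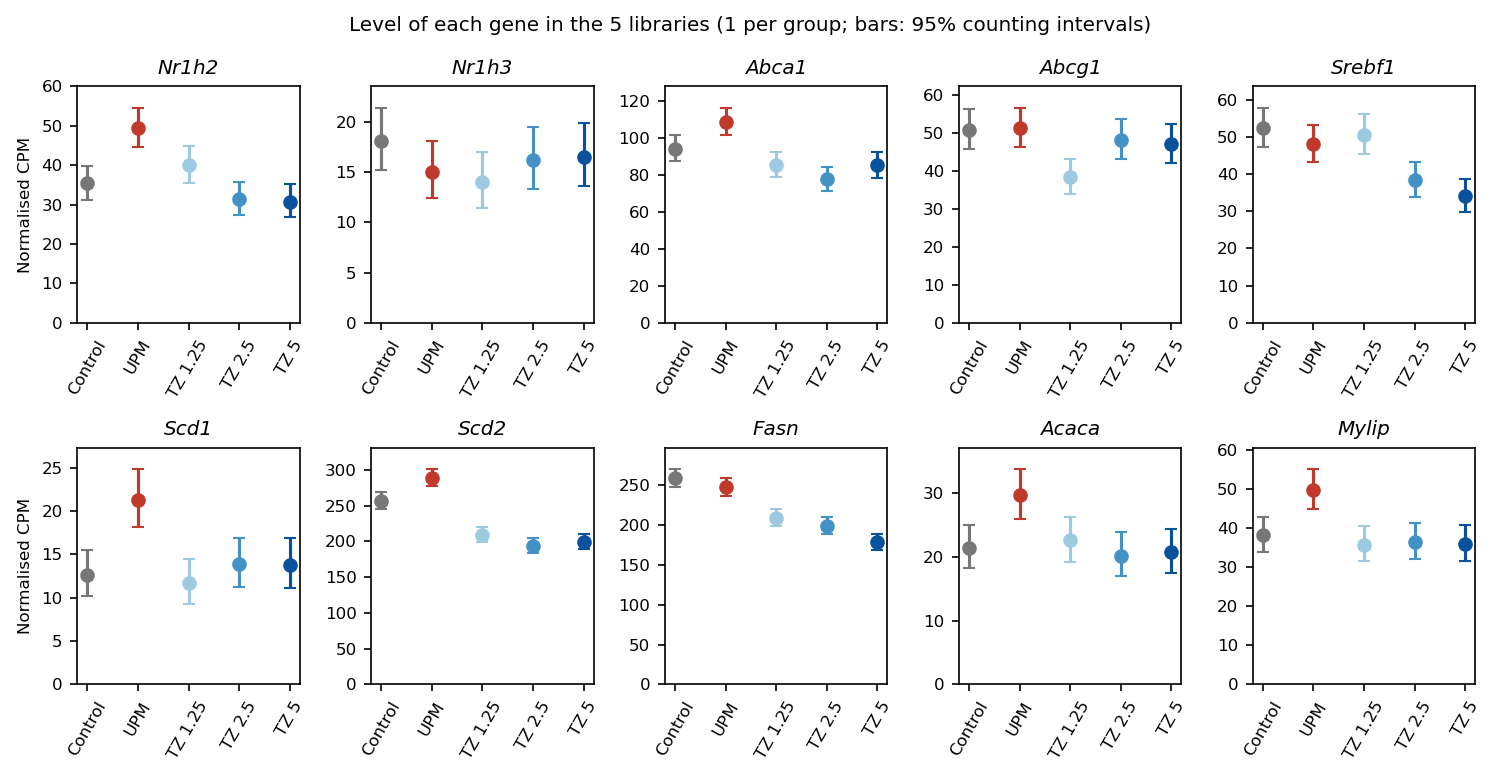
Normalised CPM (y axis, from 0) of each of the 10 genes in the 5 libraries (x axis), 1 library per group, with 95% exact Poisson counting intervals as bars. In 7 panels UPM is the highest point, while Nr1h3, Fasn and Srebf1 are highest in the control, and Fasn and Srebf1 are lowest at TZ 5.

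Of the cholesterol exporters, Abca1, which loads cholesterol and phospholipid onto lipid-poor apolipoprotein, was highest in UPM and lower in every TZ library. It measured 94.2 CPM (control), 109 (UPM) and then 85.4, 77.7 and 85.3 with rising TZ dose. Relative to UPM this was 0.785-fold (0.706 to 0.872), 0.714-fold (0.640 to 0.797) and 0.784-fold (0.705 to 0.873), none of them a call. The control lay between UPM and the TZ libraries, with UPM at 1.15-fold (1.04 to 1.28) and TZ 2.5 at 0.824-fold (0.735 to 0.923) of it.

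Abcg1, which passes cholesterol on to mature lipoprotein particles, was low at TZ 1.25 and close to level elsewhere. It measured 50.8 CPM (control), 51.4 (UPM) and then 38.4, 48.2 and 47.0 with rising TZ dose. TZ 1.25 was 0.747-fold (0.639 to 0.874) of UPM and 0.755-fold (0.644 to 0.884) of the control. At TZ 2.5 and TZ 5 its intervals held 1 against both. There were 1.85 (1.63 to 2.10) Abca1 counts per Abcg1 count in the control, 2.12 (1.88 to 2.39) in UPM and 2.22 (1.93 to 2.57), 1.61 (1.403 to 1.85) and 1.81 (1.58 to 2.08) with rising TZ dose. The intervals of the control and TZ 5 overlapped all the others.

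Mylip (IDOL), a ubiquitin ligase that limits lipoprotein uptake, had 1 high library and 4 that were close together. It was 38.2 CPM (control), 49.8 (UPM) and then 35.8, 36.4 and 36.0 with rising TZ dose. UPM was 1.30-fold (1.12 to 1.52) of the control. The TZ libraries were 0.718-fold (0.611 to 0.843), 0.731-fold (0.621 to 0.859) and 0.722-fold (0.613 to 0.850) of UPM, and none of these was a call. Relative to the control they were 0.936-fold, 0.952-fold and 0.942-fold, with intervals that held 1.

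Srebf1, the gene of SREBP-1, was not higher in UPM. Its level was 52.4 CPM (control), 48.0 (UPM) and then 50.6, 38.4 and 34.1 with rising TZ dose. The first 3 libraries were not apart, and the 2 higher doses stood below them. TZ 5 relative to the control was a call, at 0.650-fold (0.551 to 0.766). Relative to UPM, TZ 5 was 0.711-fold (0.601 to 0.839) and TZ 2.5 was 0.801-fold (0.681 to 0.940).

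Fasn, the fatty acid synthase that builds palmitate, was the one gene of the 10 whose level was lower at every step from the control to TZ 5. It read 258 CPM (control), 248 (UPM) and then 209, 199 and 179 with rising TZ dose, from 1231 to 1942 counts. Control and UPM were not apart (0.960-fold, 0.900 to 1.02), nor were TZ 1.25 and TZ 2.5. With rising dose the libraries were 0.844-fold (0.789 to 0.904), 0.801-fold (0.747 to 0.859) and 0.720-fold (0.669 to 0.774) of UPM. The same libraries were 0.810-fold (0.757 to 0.867), 0.769-fold (0.717 to 0.824) and 0.691-fold (0.643 to 0.742) of the control. None reached the fold limit, although each of these 6 intervals lay below 1.

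Acaca, acetyl-CoA carboxylase, supplies Fasn with malonyl-CoA and is the committed step of the pathway. It was 21.4 CPM (control), 29.7 (UPM) and then 22.6, 20.2 and 20.7 with rising TZ dose. UPM, at 1.38-fold (1.13 to 1.70) of the control, was apart from every other library, whereas the control and the TZ libraries were not apart from each other in the order of levels. The TZ libraries were 0.761-fold (0.619 to 0.935), 0.681-fold (0.548 to 0.845) and 0.699-fold (0.563 to 0.866) of UPM, none of them a call. So Acaca was high in UPM where Fasn was not.

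The stearoyl-CoA desaturases put a double bond into saturated fatty acids. Scd1, a classic LXR and SREBP-1c target, gave the highest fold of the 10 genes in UPM against control, on few counts. It had 95 counts (control), 163 (UPM) and then 84, 96 and 95 with rising TZ dose, or 12.6 CPM (control), 21.3 (UPM) and then 11.6, 13.9 and 13.8 with rising TZ dose. UPM alone was high, and no neighbours among the other 4 were apart. Scd1 was called higher in UPM, at 1.68-fold (1.30 to 2.19) of the control. It was called lower than UPM in every TZ library, at 0.546-fold (0.415 to 0.715), 0.651-fold (0.5002 to 0.842) and 0.647-fold (0.497 to 0.838) with rising dose.

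Scd2, the main desaturase of brain, stood at 257 CPM (control), 289 (UPM) and then 210, 194 and 199 with rising TZ dose, from 1341 to 2211 counts. UPM was 1.12-fold (1.06 to 1.20) of the control. Unlike Scd1, Scd2 was also below the control with TZ, at 0.815-fold (0.762 to 0.872), 0.753-fold (0.702 to 0.808) and 0.775-fold (0.722 to 0.831). The TZ libraries were 0.725-fold (0.679 to 0.775), 0.670-fold (0.626 to 0.717) and 0.689-fold (0.644 to 0.738) of UPM, the second just short of the limit. The number of Scd2 counts per Scd1 count was 20.3 (16.5 to 25.2) in the control and 13.6 (11.6 to 16.003) in UPM. At TZ 1.25, TZ 2.5 and TZ 5 it was 18 (14.4 to 22.7), 14.0 (11.3 to 17.4) and 14.5 (11.7 to 17.99). Each of these intervals overlapped those of both UPM and the control. Scd1 and Scd2 are paralogs, and no source used here states how reads that match both were counted, so the split between them is uncertain.

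**Figure D2:**
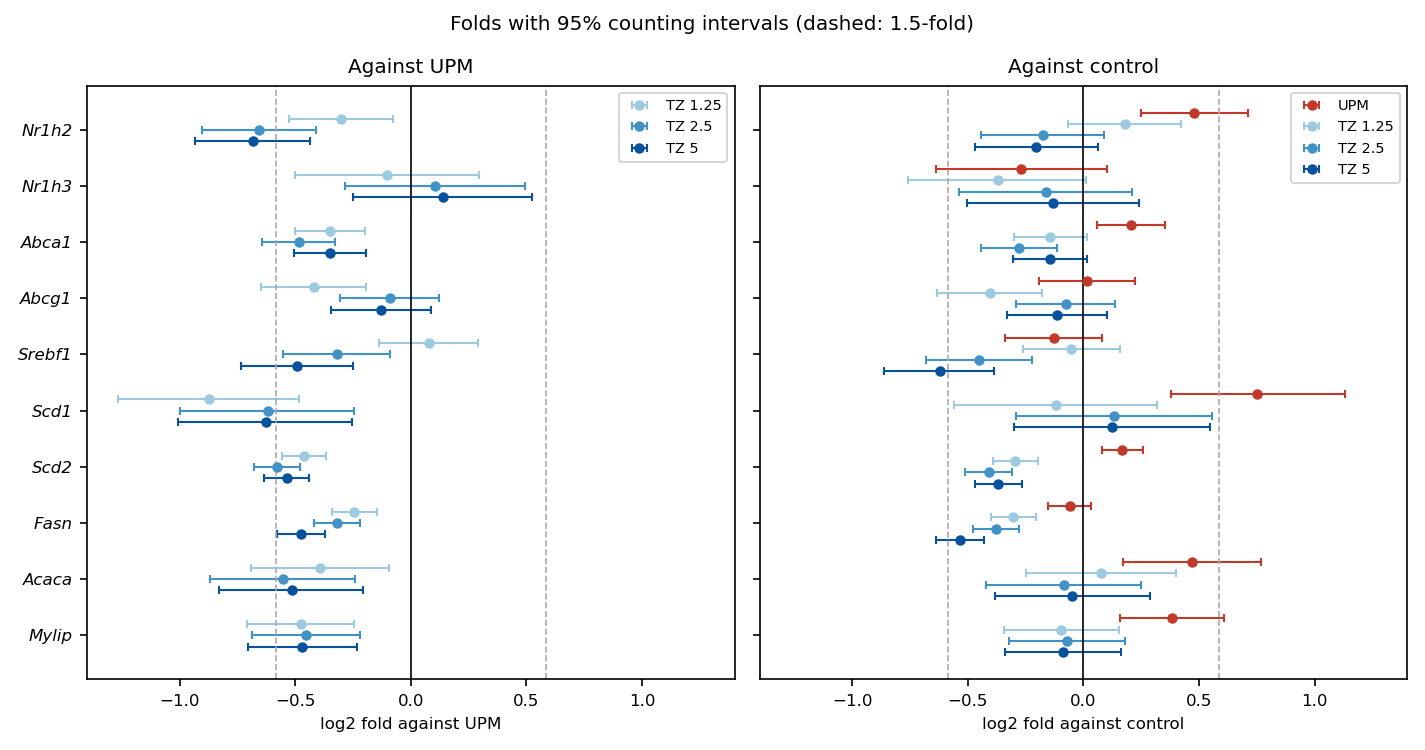
Log2 fold (x axis) of each gene (y axis) against UPM on the left and against the control on the right, with 95% counting intervals as bars and 1.5-fold as dashed lines. On the left 9 of 10 points lie left of 0 at each dose, and on the right the UPM bars of Nr1h2, Abca1, Scd1, Scd2, Acaca and Mylip lie wholly right of 0.

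Set side by side, the 10 genes gave few calls, while their direction was mostly shared. In UPM against control 1 of 10 was called higher and 0 lower, where 1.67% of all measured genes were called higher and 1.41% lower. The interval lay above 1 for 6 of the 10 and below 1 for 0, against 15.4% and 18.6% of all genes. The median log2 fold was 0.19, and -0.00 over all genes.

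Relative to UPM, 1 of the 10 was called lower at TZ 1.25 (1.03% of all genes) and 0 higher (1.19%). At TZ 2.5, 2 were called lower (1.73%) and 0 higher (2.67%). At TZ 5, 2 were called lower (2.8%) and 0 higher (3.78%). By interval alone 8 of 10 lay below 1 at each dose, where 15.5%, 20.7% and 21.7% of all genes did so, and 0 of 10 lay above (14.4%, 20.3% and 23.3%). The medians were -0.37, -0.47 and -0.48, and all genes had a median of -0.00, -0.01 and 0.00. The gene above 0 was Srebf1 at TZ 1.25 and Nr1h3 at the other doses. These 3 comparisons share the UPM library with each other and with UPM against control.

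Against the control the TZ libraries showed fewer differences among the 10 genes. Of them 0 were called lower at TZ 1.25 (0.821% of all genes), 0 at TZ 2.5 (1.41%) and 1, Srebf1, at TZ 5 (2.51%), with 0 called higher at any dose (1.56%, 2.21% and 3.55%). The interval lay below 1 for 3 genes at TZ 1.25 (Abcg1, Scd2 and Fasn; 16.4% of all genes), for 4 at TZ 2.5 (Abca1, Srebf1, Scd2 and Fasn; 19.1%) and for 3 at TZ 5 (Srebf1, Scd2 and Fasn; 22.4%). It lay above 1 for 0 genes (11.7%, 17.7% and 21.9%). The medians were -0.13, -0.17 and -0.14. Scd2 and Fasn were thus below both the control and UPM at all 3 doses, while Nr1h2, Acaca, Mylip and Scd1 were apart from UPM and not from the control.

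UPM was the highest of the 5 libraries for 7 of the 10 genes, as it was for 23.4% of 8341 genes with a mean of at least 10 CPM. All 3 TZ libraries lay below UPM for 8 of the 10 (30.8% of all genes) and below both UPM and control for 5 of the 10 (15.7%). The summed level of the 10 genes was 839 CPM (control), 910 (UPM) and then 717, 675 and 662, more of it from Fasn and Scd2 than from the other 8.

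The course over dose was then tested in 1 fit of all genes and all 5 libraries. It had a term for UPM and a straight line for TZ dose (edgeR quasi-likelihood test, Benjamini-Hochberg adjusted over 12381 genes). The control has its own level in this fit, so the slope rests on the particle-exposed libraries alone. At an adjusted p under 0.05 the slope fell for 3 of the 10 genes and rose for 0. Of all genes 2.5% fell and 2.95% rose at that limit. By sign alone 9 of the 10 slopes lay below 0, where 49.1% of all genes did. Nr1h2 fell by 0.14 (SE 0.04, adjusted p = 0.0181) on the log2 scale per µg/mL. Scd2 fell by 0.09 (SE 0.03, adjusted p = 0.0149) and Fasn by 0.09 (SE 0.02, adjusted p = 0.0137). Srebf1 had a slope of -0.11 (SE 0.04, adjusted p = 0.0510), just outside the limit. Those 4, with Abca1 at -0.06 (SE 0.03, adjusted p = 0.248), Acaca at -0.10 (SE 0.04, adjusted p = 0.240) and Mylip at -0.08 (SE 0.04, adjusted p = 0.251), made 7 of 10 with a negative slope at an unadjusted p under 0.05 (8.42% of all genes, and 0 of 10 against 9.15% positive). With DESeq2 3 of the 10 had an unadjusted p under 0.05. The slope of Scd1 was -0.10 (SE 0.06, adjusted p = 0.383), that of Abcg1 -0.00 (SE 0.04, adjusted p = 0.982) and that of Nr1h3 0.04 (SE 0.05, adjusted p = 0.783). The fit had 2 residual degrees of freedom beside 48.7 borrowed across genes, and its p-values measure the spread between single libraries around a line.

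The calls leaned on the UPM library, which stands for dose 0. Without it 0 slopes among the 10 genes were called, with Nr1h2 at -0.09 (adjusted p = 0.481), Fasn at -0.06 (adjusted p = 0.447), Scd2 at -0.02 (adjusted p = 0.915) and Srebf1 at -0.14 (adjusted p = 0.0983). The slopes of Abca1 (0.01), Mylip (0.00) and Acaca (-0.03) were then close to 0, and that of Scd1 was above it (0.05). Without TZ 5, Fasn was not called, at -0.13 (adjusted p = 0.0880), and Abca1 was, at -0.20 (adjusted p = 0.0213). Over all alternatives the adjusted p ran from 0.0056 to 0.481 for Nr1h2, from 4.63e-05 to 0.915 for Scd2 and from 0.00371 to 0.447 for Fasn.

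TZ 5 was also set against TZ 1.25, a comparison chosen after the data were seen. Of the 10 genes 0 were called (1.43% of all genes lower and 2.32% higher). By interval 3 of 10 lay below 1 (17.6% of all genes), Srebf1 at 0.674-fold (0.569 to 0.796), Nr1h2 at 0.768-fold (0.640 to 0.920) and Fasn at 0.853-fold (0.790 to 0.920). Abcg1, at 1.22-fold (1.04 to 1.44), lay above 1 (19.4%). For Abca1 (0.999-fold, 0.891 to 1.12), Mylip (1.01-fold, 0.842 to 1.20) and Scd2 (0.9503-fold, 0.883 to 1.02) the interval held 1. The interval also held 1 for Acaca (0.918-fold, 0.728 to 1.16), Scd1 (1.18-fold, 0.873 to 1.61) and Nr1h3 (1.18-fold, 0.896 to 1.56). All of these but Nr1h3 were below UPM by interval at TZ 1.25. What part the single UPM library had in that was not tested.

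**Figure D3:**
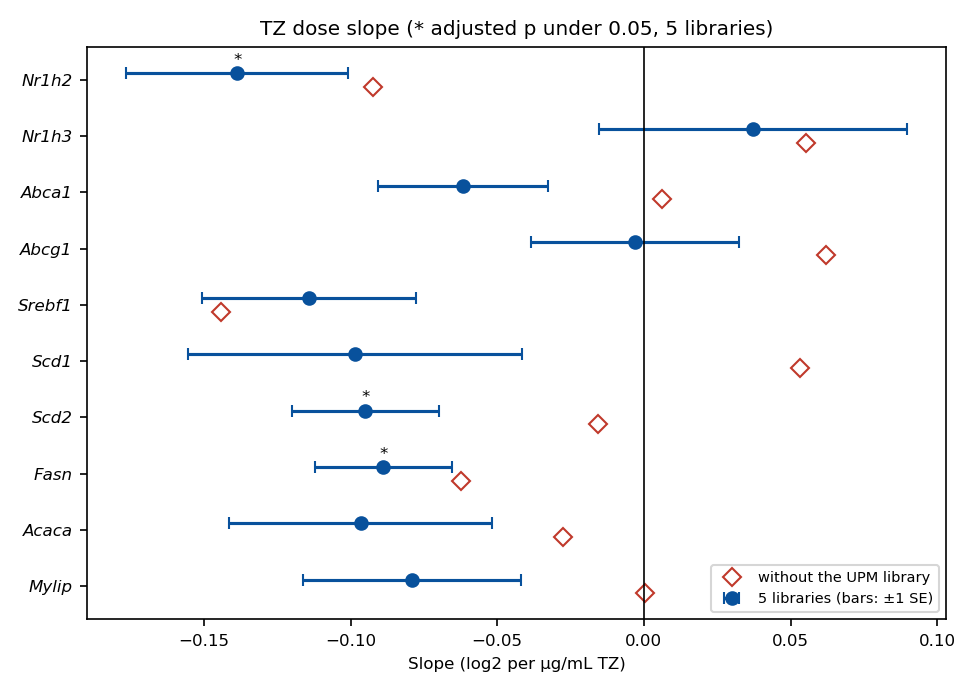
Slope over TZ dose (x axis, log2 per µg/mL) for each gene (y axis) from the fit of all 5 libraries (filled points, bars ±1 SE, star for adjusted p under 0.05) and without the UPM library (open diamonds). Without UPM the diamonds of Srebf1, Nr1h2 and Fasn lie at -0.14, -0.09 and -0.06, and that of Scd2 at -0.02.

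In the same fit the UPM term called 0 of the 10 genes with edgeR and 0 with DESeq2, where 0.0808% of all genes rose and 0.0323% fell with edgeR. At an unadjusted p under 0.05 edgeR had 1 of 10 above 0 (4.26% of all genes) and 0 below (3.53%), and DESeq2 had 0. The 1 was Nr1h2, at a log2 value of 0.38 (SE 0.17, adjusted p = 0.614, 0.263 to 1.000 over the alternatives). Scd1 was 0.47 (SE 0.27, adjusted p = 0.713). The control is a single library, so this term takes its spread from the others.

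Other genes of the pathway came from 6 lists holding 97 genes. The partners and coregulators of LXR, 12 measured of 14, had medians near 0. In UPM against control 0 were called (median log2 fold -0.01), with Ncoa2 the highest at 1.20-fold (0.956 to 1.5002) and Ncoa6 the lowest at 0.753-fold (0.645 to 0.878). At TZ 5 against UPM 2 were called higher (3.78% of all genes) and 0 lower (2.8%), with a median of -0.00. They were Ncoa6, a coactivator gene, at 1.53-fold (1.31 to 1.78), also called at TZ 2.5 (1.56-fold), and Rxra, an RXR that pairs with LXR, at 1.504-fold (1.30 to 1.75). The lowest was Rxrb, another RXR, at 0.802-fold (0.687 to 0.936). Rxra had 344 counts (control), 315 (UPM) and then 341, 373 and 427 with rising TZ dose. Its slope rose by 0.12 (SE 0.03, adjusted p = 0.0259) per µg/mL, a call lost with DESeq2 (adjusted p = 0.139) and without UPM (0.295), TZ 2.5 (0.0512) or TZ 5 (0.306). In those 4 fits the slope itself was 0.11, 0.10, 0.11 and 0.15.

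The other LXR targets and lipid export genes, 8 measured of 17, had 0 called in UPM against control, with a median of 0.17. Of the 8, 7 lay above 0, where 49.1% of all genes did. Lpcat3, which remodels membrane phospholipids, was highest at 1.32-fold (1.104 to 1.59), and Arl4c lowest at 0.877-fold (0.779 to 0.988). At TZ 5 against UPM 0 were called and the median was -0.03, with Arl4c highest at 1.13-fold (1.00 to 1.28) and Lpcat3 lowest at 0.771-fold (0.640 to 0.929). In UPM Lpcat3 was thus above both the control and TZ 5 by interval. Apoe, the lipid carrier of glia, had 46 to 89 counts per library. It was called higher at TZ 2.5 against control (1.64-fold, 1.16 to 2.31). That pair reached a mean of 10 CPM only through TZ 2.5, with the control at 7.85 CPM, so the call depends on this limit. Against UPM (6.01 CPM) its mean was under 10 CPM. Its slope in the dose fit was 0.06 (SE 0.08, adjusted p = 0.784).

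Enzymes of oxysterols and cholesterol esters had 0 called in UPM against control (6 measured of 11, median 0.09) and 0 at TZ 5 against UPM (5 measured, median -0.00). Hsd3b7 was highest in the first at 1.30-fold (1.04 to 1.64) and Ch25h, which makes 25-hydroxycholesterol, lowest at 0.874-fold (0.640 to 1.19). In the second Cyp27a1, which makes 27-hydroxycholesterol, was highest at 1.17-fold (1.01 to 1.36) and Nceh1, a cholesterol ester hydrolase, lowest at 0.861-fold (0.786 to 0.944).

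Of the 10 genes that hold, cut and degrade SREBP, all measured, 0 were called in UPM against control (median -0.03), with Erlin1 the highest at 1.21-fold (0.972 to 1.497). Insig2, which keeps the SREBP escort in the endoplasmic reticulum, was called higher than UPM at each dose. It had 120 counts (control), 108 (UPM) and then 154, 163 and 185 with rising TZ dose, and the TZ libraries were 1.51-fold (1.17 to 1.95), 1.67-fold (1.30 to 2.15) and 1.90-fold (1.49 to 2.43) of UPM. TZ 5 was also called higher than the control (1.68-fold, 1.33 to 2.13), while TZ 1.25 and TZ 2.5 were not called against the control. At TZ 2.5, however, Insig2 had the highest fold of its list against the control, and 1 interval of the list lay above 1. The slope of Insig2 rose by 0.16 (SE 0.05, adjusted p = 0.0351), a call lost without UPM (adjusted p = 0.636), TZ 2.5 (0.0705) or TZ 5 (0.145). DESeq2 gave no adjusted p for it. The slope was 0.09 without UPM, 0.16 without TZ 2.5 and 0.29 without TZ 5. Its paralog Insig1, itself a target of SREBP, was the lowest of the list at TZ 5 against UPM, at 0.704-fold (0.588 to 0.842), which was not a call.

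**Figure D4:**
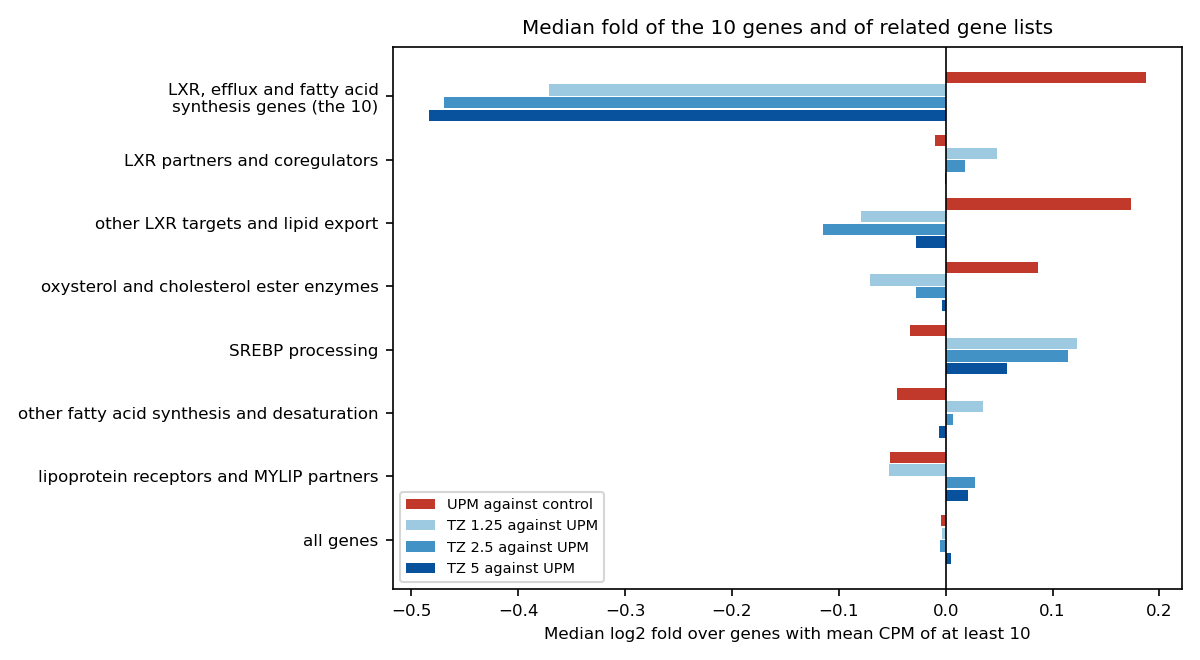
Median log2 fold (x axis) of the 10 genes, of 6 lists of other pathway genes and of all genes with a mean of at least 10 CPM (y axis), for UPM against control and for each TZ dose against UPM (bar colours). The 10 genes reach -0.37 to -0.48 with TZ, while the other 6 lists lie between -0.11 and 0.17 in these 4 comparisons.

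The other genes of fatty acid synthesis and desaturation, 23 measured of 35 in both comparisons, had medians near 0. UPM against control had 0 called and a median of -0.05, between Fads1 at 1.39-fold (1.24 to 1.57) and Fads2 at 0.742-fold (0.613 to 0.897), the desaturases of polyunsaturated fatty acids. TZ 5 against UPM had 0 called and a median of -0.01, between the elongation enzyme gene Hacd2 at 1.45-fold (1.31 to 1.61) and Slc25a1 at 0.697-fold (0.607 to 0.799). Slc25a1 exports citrate, the carbon source of the pathway, from mitochondria. Against the control Me1, a source of NADPH, was called higher at TZ 1.25 (1.56-fold) and TZ 5 (1.64-fold, 1.32 to 2.04). Gpam, which starts glycerolipid synthesis, was called higher at TZ 1.25 (1.57-fold) and TZ 2.5 (1.53-fold), and Hacd2 at TZ 5 (1.61-fold, 1.44 to 1.79). None of the list was called lower. The slope of Hacd2 rose by 0.12 (SE 0.03, adjusted p = 0.00454), also without UPM (adjusted p = 0.0424) but not without TZ 5 (0.176).

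Lipoprotein receptors and the partners of MYLIP, 7 measured of 10, had 0 called in UPM against control and 0 in any TZ library against UPM or control. Their median log2 fold was -0.05 in UPM against control and 0.02 at TZ 5 against UPM. Snx17, a sorting nexin, was lowest in the first at 0.811-fold (0.736 to 0.893), and Ube2d3, a ubiquitin-conjugating enzyme, highest in the second at 1.18-fold (1.09 to 1.28). At an adjusted p under 0.05 in the dose fit, 0 genes of the 6 lists fell (2.5% of all genes). Those that rose were Rxra (1 of 13 tested in its list), Insig2 (1 of 10) and Hacd2 (1 of 28), beside 2.95% of all genes.

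The DR4-type element was also in the windows of 58 genes outside the set, of which 8 were measured in UPM against control and in TZ 1.25 and TZ 2.5 against UPM, and 9 in TZ 5 against UPM. Of them 0 were called. With rising dose 7 of 8, 6 of 8 and 6 of 9 lay below UPM, where 50.8%, 50.8% and 49.3% of all genes did. Their median log2 folds were -0.06 in UPM against control and -0.10, -0.19 and -0.15 with rising dose against UPM. All genes had medians of -0.00 and then -0.00, -0.01 and 0.00. In the dose fit 13 of the 58 were tested, with 7 slopes below 0 and 0 called either way. Abca1, Srebf1 and Fasn, whose elements are printed above, differed in course. Abca1 was above the control in UPM and level between TZ 1.25 and TZ 5, whereas Srebf1 and Fasn were not above the control in UPM and were lowest at TZ 5.

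The genes most like Nr1h2 and Scd1 over the 5 libraries were sought among 8071 genes by the root mean square difference of centred log2 levels. For Nr1h2 they were Lrrc41 (0.0374), Timp2 (0.0386) and Stac2 (0.0423), in log2 units. For Scd1 they were Borcs5 (0.0783), Ada (0.0812) and Mcub (0.0937). With 5 libraries, many genes can come this close.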

How the data were processed

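Each group had 1 library. The authors deposited raw counts by gene symbol, from single-end 75 bp reads, per the labels' protocols. The submitters' processing notes list GRCm39, STAR and edgeR. No source used here states the counting program, the annotation or the strand setting, so paralogs and overlapping genes are less certain, and no molecular identifiers are named.

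Folds were ratios of TMM-scaled CPM with Clopper-Pearson 95% intervals, and levels had exact Poisson intervals. Both cover counting error only. The dose fit used edgeR 4.0.16 (limma 3.58.1, R 4.3.3) with factors over all genes, then filterByExpr, and terms for UPM and linear TZ dose. The SE was taken from the estimate and its F value. Alternatives were other scalings, other limits on fold and CPM, DESeq2 1.42.0, no filter, dose as rank, no dose term, each particle-exposed library left out and, chosen after seeing the data, scaling after the filter. The code was tested on simulated data. All 10 genes were named, and of each list the called genes and the highest and lowest in UPM against control and TZ 5 against UPM. Some of these are not reported here. The genes and lists were chosen with earlier results of these data known. Promoter windows came from RefSeq on GRCm38.p6, another build than that of the counts.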

Additional observations from a re-analysis of the deposited data

How the results depend on the processing

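No paired analysis was possible because each group has 1 library. With DESeq2 size factors or total counts in place of TMM, no count of calls among the 10 genes moved by over 1.5 times, and of 186 folds of single genes 0 left their interval. With DESeq2 size factors Scd2 at TZ 2.5 against UPM became a call (0.666-fold) and Rxra at TZ 5 lost its call (1.49-fold). A mean CPM minimum of 1 moved no count. At a fold limit of 2 every comparison of 2 libraries had 0 of the 10 called. At a mean CPM minimum of 30, which leaves out Scd1, UPM against control and TZ 1.25 against UPM had 0 called, and TZ 2.5 and TZ 5 against UPM had 1 each (Nr1h2). The share of all genes called was not computed at these other limits, so these counts cannot be set against it. Dose slopes called lower numbered 1 with DESeq2 (Fasn) and from 0 (without UPM) to 3 with 1 library left out. DESeq2 gave no adjusted p for 6 of the 10 genes, Nr1h2 among them, and put Scd2 at 0.427. Srebf1 was called with dose as rank (adjusted p = 0.0382), with DESeq2-type factors (0.0424) and with scaling after the filter (0.0405). Over all genes the dose slope called 674, against 295 with DESeq2, 209 without UPM and 370 without TZ 5, and the UPM term 14, against 6 with DESeq2 and from 1 (no dose term) to 80 (without TZ 5) over all alternatives; the cause was not tested. Depth limits Scd1 and Nr1h3 most, at 84 to 163 counts.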
